A study of Mus musculus with 16 samples.

Results

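The interaction between the PS19 tau transgene and the p16 genotype was measured in the hippocampus of 8-month-old female mice by bulk RNA sequencing. All 16 of the 16 libraries entered the comparison, 4 in each of 4 groups that cross the genotypes. Wildtype animals lacked the transgene and had p16 intact, p16KO animals lacked the transgene and had p16 knocked out, PS19 animals carried the transgene with p16 intact, and PS19_p16KO animals carried the transgene with p16 knocked out. No other allele or treatment is named in the labels. The interaction of a gene is a difference of differences on the log2 scale, the transgene effect with p16 knocked out (PS19_p16KO minus p16KO) less the transgene effect with p16 intact (PS19 minus wildtype). A negative value means that the transgene effect was lower, in the signed sense, where p16 was missing.

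PS19 mice express a human tau protein with a disease mutation from the mouse prion promoter, so the levels measured answer to a transgene driven across the brain and not to the native tau gene alone. The protein p16 is encoded by Cdkn2a, blocks the cyclin-dependent kinases that drive the cell past G1, and is widely used as a marker of senescent cells. Microglia are the resident macrophages of the brain. They sense debris and misfolded protein through surface receptors that signal by ITAM motifs and the kinase Syk, they bind complement, and they digest what they engulf in lysosomes. Astrocytes answer injury with intermediate filaments such as Gfap and supply neurons with cholesterol. The series title names microglia and endothelial cells that express p16, and the crossed design asks which transgene responses depend on that gene.

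Libraries held 18485552 to 22311322 gene counts, and 16372 genes were tested. The labels do not state that each sample is a different animal, and the p-values therefore rest on the spread among these samples, which may be technical. Cdkn2a (GRCm38 chromosome 4, 89274471 to 89294653) had 8 counts over the 4 wildtype libraries, 3 over p16KO, 18 over PS19 and 2 over PS19_p16KO, which was too few to test. Whether those counts cover the deleted part was not tested. Choroid plexus RNA, which is carried in with neighbouring tissue at dissection, was high in wildtype replicate 1, p16KO replicate 4 and PS19_p16KO replicate 3, with summed marker levels of up to 1710, 5990 and 9460 CPM (each count scaled to a common library size), against at most 279 CPM in PS19. The library names carry a leading number that the labels do not explain, and it ran from 6883 to 6967 in wildtype, 7036 to 7510 in p16KO, 6894 to 8147 in PS19 and 7035 to 7913 in PS19_p16KO. Wildtype numbers thus lay below all numbers of both knockout groups, and only the PS19 group held numbers within and above the wildtype range.

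A single gene passed the test of the interaction across all genes. C3ar1 encodes the receptor for C3a, the small fragment released when complement component C3 is cut, and in the brain it is known from microglia. The gene lies on GRCm38 chromosome 6, 122847138 to 122856161, on the minus strand. Its promoter is shown because the interaction turns on this gene. Those of Cd84 and Cd68, a receptor of the SLAM family and a lysosomal membrane protein of macrophages described below, are shown beside it. Both genes come next by interaction p among the named genes that hold the same short motif. Each sequence is the 250 bases before the RefSeq start site in GRCm38.p6, read 5′ to 3′ on the strand of the gene, and the capitals mark TGACTCA or its reverse complement, the site bound by AP-1 factors. The windows are chr6:122856158-122856407 on the minus strand for C3ar1, chr1:171839447-171839696 on the plus strand for Cd84 and chr11:69666171-69666420 on the minus strand for Cd68.
C3ar1: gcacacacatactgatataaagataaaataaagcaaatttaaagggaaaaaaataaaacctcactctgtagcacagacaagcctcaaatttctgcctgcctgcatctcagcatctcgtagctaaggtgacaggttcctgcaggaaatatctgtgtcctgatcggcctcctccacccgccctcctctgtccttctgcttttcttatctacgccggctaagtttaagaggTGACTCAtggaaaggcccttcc
Cd84: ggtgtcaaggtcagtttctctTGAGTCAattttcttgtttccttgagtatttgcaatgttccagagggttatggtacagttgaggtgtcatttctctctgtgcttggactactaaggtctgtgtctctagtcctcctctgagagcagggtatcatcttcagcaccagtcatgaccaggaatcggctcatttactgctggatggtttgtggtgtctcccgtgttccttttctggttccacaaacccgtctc
Cd68: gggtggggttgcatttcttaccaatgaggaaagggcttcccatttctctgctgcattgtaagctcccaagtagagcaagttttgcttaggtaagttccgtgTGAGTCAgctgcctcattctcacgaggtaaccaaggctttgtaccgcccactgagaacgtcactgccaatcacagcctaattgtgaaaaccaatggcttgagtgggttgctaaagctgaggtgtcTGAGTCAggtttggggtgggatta
In C3ar1 the motif ended 15 bases before the start site. Of the 32851 promoters of this length, 4.46% held TGACTCA on either strand. Of the 133 named genes with a promoter in the table, 13 held it in any of their promoters. The first share counts promoters and the second counts genes, which may have several promoters, so the shares cannot be compared. Interactions of the 13 genes took both signs, as in Cd84 (−2.18) and Msmo1 (0.38). Motifs of PU.1 (GAGGAAGT, in 2.44% of promoters), of interferon response factors (GAAA followed after 2 bases by GAAA, in 2.98%) and of the sterol response (TCACNCCAC, in 1.05%), also searched on both strands, had no match in the C3ar1 window. In the same count of named genes these motifs were held by 2, 9 and 2, in that order. A match is a description of the letters and says nothing of binding.

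The level of C3ar1 was 1.2, 1.22, 0.896 and 1.23 CPM in the 4 wildtype libraries and 2.02, 1.84, 1.74 and 2.24 CPM in p16KO. It was 8.45, 9.25, 4.48 and 7.01 CPM in PS19 and 1.72, 1.86, 2.70 and 2.51 CPM in PS19_p16KO. Every PS19 library lay above every library of the other groups, while PS19_p16KO overlapped p16KO, and p16KO lay above wildtype without overlap. With p16 intact the transgene raised C3ar1 by 2.68 ± 0.23 (log2 ± SE, adjusted p = 1.24e-06, edgeR quasi-likelihood test). With p16 knocked out the transgene effect was 0.16 ± 0.22 (adjusted p = 0.999 by edgeR). The interaction was −2.52 ± 0.32, with a 95% interval of −3.18 to −1.85 and an adjusted p of 0.00248. Without the transgene the p16KO group differed from wildtype by 0.78 ± 0.24, which was not called (adjusted p = 0.774 by edgeR). On the linear scale the same difference of differences was −5.93 CPM. The group totals behind these values were 90 counts in wildtype, 158 in p16KO, 564 in PS19 and 168 in PS19_p16KO.

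Over all genes, the interaction call of C3ar1 was 0.00611% of those tested, as was the call in the lower direction, and 0% were called higher. At an unadjusted p under 0.05 there were 890 genes (5.44%), of which 681 were lower (4.16%) and 209 higher (1.28%). DESeq2, run as an alternative, called 88 genes (0.55% of the 16000 to which it gave an adjusted p), 87 lower (0.544%) and 1 higher (0.00625%). At an adjusted p under 0.1 by edgeR there were 19 genes (0.116%), and the interaction was negative in all 19, on the log2 scale and on the linear scale. The tests of the transgene effect called 264 genes with p16 intact (1.61%) and 3 with p16 knocked out (0.0183%). Loss of p16 called 0 genes without the transgene (0%, with 653 at an unadjusted p under 0.05) and 135 with it (0.825%). These pairwise tests share libraries with the interaction, and an effect called in some of them and not in others is no test of the difference, which is the interaction itself. The median interaction over all genes was 0.01, and its median standard error was 0.14, against 0.10 for a pairwise effect.

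PS19 replicate 3 stood closer to the other groups than the remaining PS19 libraries in most immune genes below. Without it the fit called 160 of the 16584 genes then tested, 157 lower and 3 higher, and C3ar1 had an interaction of −2.69. Each other library left out in turn gave 1 to 3 calls. In those immune genes, dropping the PS19 library nearest the other groups widens the difference and narrows the PS19 spread. The added calls are therefore no separate support. C3ar1 was called in each of the 28 alternative settings, with an interaction between −2.69 and −2.38 in the 27 that give their own estimate. Leaving out the 3 choroid-rich libraries gave −2.58 (adjusted p = 0.0228), and with the number that opens each library name as a covariate it was −2.59 (adjusted p = 0.00805) in a fit that called 57 genes.

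**Figure D1:**
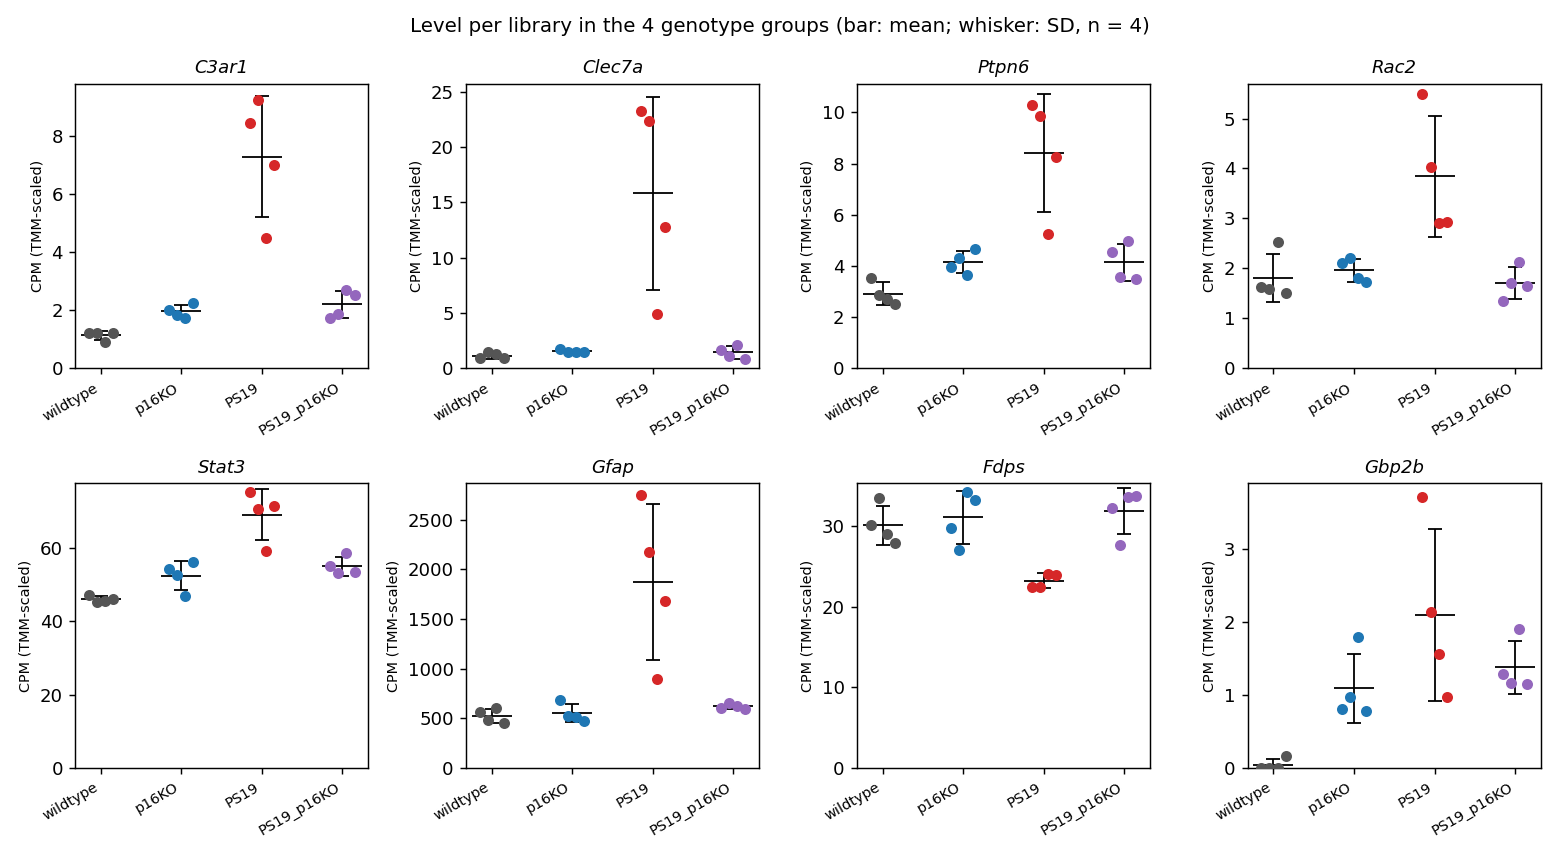
Level per library (CPM, vertical axes from 0) of 8 genes in the 4 groups, with the group mean and SD (n = 4). In C3ar1, Clec7a, Ptpn6, Rac2, Stat3 and Gfap all PS19 libraries lie above the libraries of the other groups, in Fdps all lie below, and in Gbp2b wildtype lies near 0 with the other groups above it.

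The receptors and kinases that microglia use to sense their surroundings had mostly negative interactions. Of 17 genes of ITAM and Syk signalling tested, 0 were called and all 17 had a negative interaction, 15 of them at an unadjusted p under 0.05, where 4.16% of all genes were lower at that p. Their median interaction was −1.07, against 0.01 over all genes. DESeq2 called 5 of the 17. Without PS19 replicate 3, the library of that group nearest the others, edgeR called 9, in a fit that called 160 of 16584 genes. In this and all other lists of cell-type genes, bulk RNA cannot tell fewer cells of a type from less RNA per cell.

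Clec7a, a lectin receptor for glucans that marks activated microglia, had 0.886, 1.49, 1.27 and 0.913 CPM in wildtype and 1.75, 1.49, 1.44 and 1.46 CPM in p16KO. Its levels were 23.3, 22.4, 4.86 and 12.8 CPM in PS19 and 1.67, 1.06, 2.12 and 0.874 CPM in PS19_p16KO. All PS19 libraries lay above the rest, and the other groups overlapped. The transgene raised Clec7a by 3.79 ± 0.43 with p16 intact (adjusted p = 0.000393 by edgeR), the effect with p16 knocked out was −0.10 ± 0.45, and the interaction was −3.88 ± 0.62 (adjusted p = 0.0505), just outside the threshold.

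Ptpn6 encodes SHP-1, a phosphatase that damps ITAM signalling. It was at 3.54, 2.88, 2.69 and 2.52 CPM in wildtype, 3.96, 4.30, 3.64 and 4.64 CPM in p16KO, 10.3, 9.87, 5.23 and 8.26 CPM in PS19, and 4.53, 3.56, 4.98 and 3.49 CPM in PS19_p16KO. PS19 stood above the other groups without overlap, and the interaction was −1.53 ± 0.27 (adjusted p = 0.0505 by edgeR). Tyrobp, the ITAM adaptor DAP12, and Trem2, the lipid receptor that signals through it, had interactions of −1.40 ± 0.33 and −1.50 (adjusted p = 0.162 for Tyrobp). The kinases Lyn and Syk had −0.78 ± 0.18 and −0.51. Card9 and Plcg2, which act further downstream, had the smallest values of the list, −0.24 and −0.16.

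Dock2, a guanine nucleotide exchange factor that activates Rac in leukocytes, belonged to none of the lists. Wildtype libraries held 4.33, 3.02, 2.64 and 2.79 CPM and p16KO libraries 4.90, 5.17, 4.77 and 3.91 CPM. PS19 held 15.2, 14.3, 7.34 and 9.94 CPM, and PS19_p16KO held 6.06, 5.37, 4.13 and 5.73 CPM. PS19 again lay above all other libraries, and the interaction of Dock2 was −1.69 ± 0.30 (adjusted p = 0.0505 by edgeR).

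Inhibitory and adhesion receptors of the checkpoint, Siglec and SLAM families had a median interaction of −1.21 over 15 genes tested of 18 listed. All 15 were negative, 0 were called and 11 had an unadjusted p under 0.05. DESeq2 called 5. Cd22, a Siglec that binds sialic acid and restrains phagocytosis, had 17 counts over the wildtype libraries, 30 over p16KO, 219 over PS19 and 28 over PS19_p16KO. Its level in PS19 was 4.31, 3.65, 0.809 and 2.55 CPM, against 0.104 to 0.573 CPM in all other libraries, and its interaction was −3.74 ± 0.73 (adjusted p = 0.0751 by edgeR).

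Cd84, a self-binding SLAM receptor, was at 1.82, 3.47, 1.69 and 1.83 CPM in wildtype and 3.28, 2.82, 3.08 and 2.03 CPM in p16KO. It was at 11.5, 11.2, 3.83 and 7.17 CPM in PS19 and 2.24, 2.34, 2.44 and 2.40 CPM in PS19_p16KO. The lowest PS19 library was only just above the highest wildtype library, and the interaction was −2.18 ± 0.42 (adjusted p = 0.0751 by edgeR). Siglecf, which binds sialylated glycans, had −2.10 ± 0.50, and Cd33, the Siglec of human Alzheimer genetics, had −0.76 ± 0.20 (adjusted p of 0.15 and 0.201 by edgeR).

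Phagocytic and Fc receptors took a smaller median of −0.54 over 12 genes tested of 13, with 0 called, 9 negative, 3 positive and 6 at an unadjusted p under 0.05 (3 by DESeq2), and the median was −0.33 without PS19 replicate 1. Fcgr3 and Fcgr1, activating receptors for antibody, had interactions of −1.23 ± 0.26 and −1.20 ± 0.34. Axl, a receptor kinase for apoptotic cells, and Pros1, a ligand of that receptor family, had −0.73 ± 0.16 and −0.90 ± 0.22. The adjusted p of Fcgr3 was 0.112 and that of Axl 0.131 by edgeR.

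Secreted signals could be tested only in part, because 8 of 15 chemokine genes were too low. The 7 tested had a median interaction of −1.32, the most negative among the lists drawn, with 0 called, 6 negative and 4 at an unadjusted p under 0.05, and DESeq2 called 2. Ccl9 and Ccl6 encode related CC chemokines of myeloid cells. Ccl9 was at 4.25, 4.08, 2.81 and 1.90 CPM in PS19, against 0.161 to 0.580 CPM in wildtype, 0.521 to 1.74 CPM in p16KO and 0.764 to 1.12 CPM in PS19_p16KO. Its interaction was −3.13 ± 0.55 (adjusted p = 0.0505 by edgeR).

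Ccl6 reached 11.4, 13.1, 4.59 and 6.95 CPM in PS19 and 0.938 to 2.97 CPM elsewhere, with an interaction of −2.57 ± 0.48 (adjusted p = 0.0751 by edgeR). In both chemokines PS19 did not overlap the other groups. The interferon-induced chemokine Cxcl10 had an interaction of −1.41 ± 0.54 and Cxcl16, a scavenger receptor and chemokine, −1.32 ± 0.44. Cx3cl1, the neuronal ligand of the microglial receptor Cx3cr1, and Cxcl12 had interactions of 0.00 and 0.16.

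Among 21 cytokine and growth factor receptors and their signalling genes tested, 0 were called, 20 were negative and 13 of these had an unadjusted p under 0.05, with a median of −0.52. DESeq2 called 5. Stat3, the transcription factor that carries signals from gp130 receptors to the nucleus, showed the most even libraries. It was at 47.2, 45.3, 45.6 and 46.0 CPM in wildtype, 54.1, 52.7, 46.8 and 56.1 CPM in p16KO, 75.2, 70.6, 59.1 and 71.4 CPM in PS19, and 55.0, 53.1, 58.7 and 53.3 CPM in PS19_p16KO. The highest PS19_p16KO library lay just below the lowest PS19 library, and the interaction was −0.52 ± 0.10 (adjusted p = 0.0751 by edgeR).

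Osmr, the receptor for oncostatin M that signals through Stat3, was at 3.60, 4.59, 4.53 and 3.97 CPM in wildtype and 6.07, 4.92, 5.34 and 5.37 CPM in p16KO. PS19 libraries had 27.5, 14.4, 8.42 and 13 CPM and PS19_p16KO libraries 6.54, 4.52, 5.51 and 4.81 CPM. PS19 lay above the rest, and the interaction of Osmr was −1.94 ± 0.37 (adjusted p = 0.0751 by edgeR). The other receptors near the top of this list were those of transforming growth factor beta, Tgfbr2 (−0.90 ± 0.19) and Tgfbr1 (−0.78 ± 0.17), and Csf1r, the survival receptor of microglia (−0.87 ± 0.19). Il34, a ligand of Csf1r made by neurons, was the exception in sign at 0.14.

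Complement genes took both signs. C3ar1 was the 1 gene called of 18 tested, and DESeq2 called 6. The classical pathway genes C1qa, C1qb and C1qc had interactions of −1.54, −1.47 and −1.42, and C4b, which they lead to, had −1.68 ± 0.37 (adjusted p = 0.176 by edgeR). C4b was at 311, 277, 107 and 183 CPM in PS19, against 49.1 to 76.5 CPM in all other libraries. The list median was −0.52, with 13 negative and 5 positive, and 7 had an unadjusted p under 0.05, all lower. Without PS19 replicate 1 the median was −0.27. C3 itself had −0.92 (adjusted p = 0.999 by edgeR) and the C5a receptor gene C5ar1 −0.32, while the regulators Cd55 and Cd59a had 0.04 and 1.05.

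**Figure D2:**
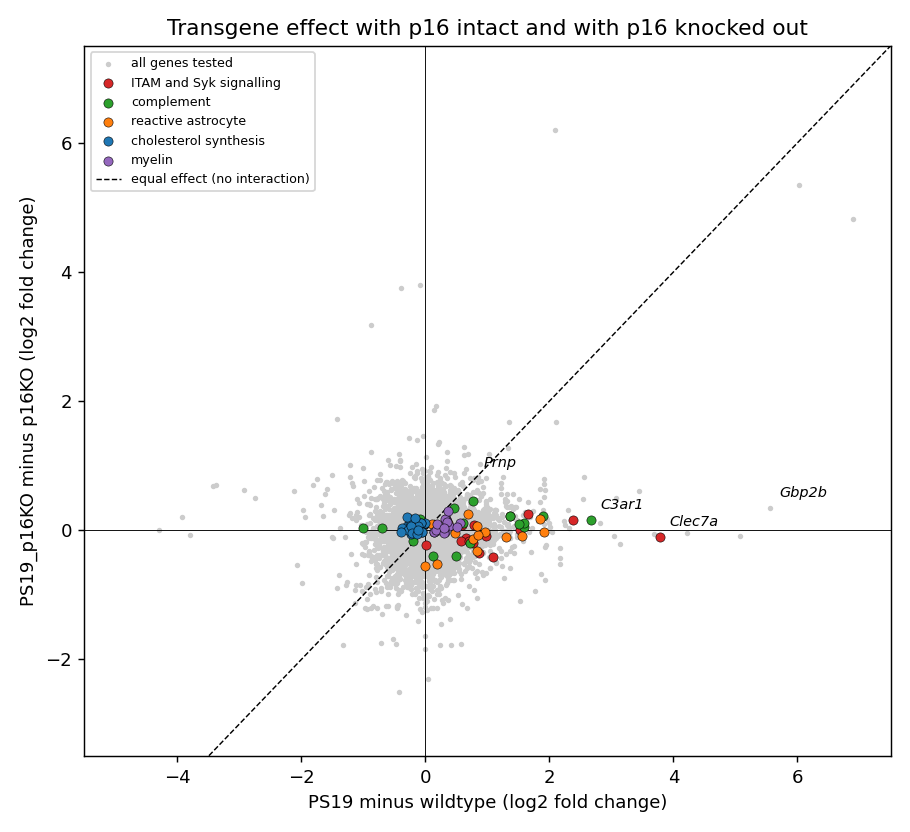
Transgene effect with p16 intact (horizontal, log2) against the transgene effect with p16 knocked out (vertical, log2) for the 16372 genes tested, with 5 lists coloured. Points on the dashed line have no interaction, which Prnp is close to, while C3ar1 and Clec7a lie near 0 on the vertical axis at 2.68 and 3.79 on the horizontal.

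Effector functions of phagocytes followed the receptors in sign. All 7 genes of the phagocyte NADPH oxidase, the enzyme that makes superoxide, were negative, with 0 called, 6 at an unadjusted p under 0.05, 1 called by DESeq2 and a median of −0.93. Rac2, the GTPase that activates the enzyme, was at 1.62, 1.58, 2.53 and 1.5 CPM in wildtype, 2.11, 2.20, 1.80 and 1.72 CPM in p16KO, 5.49, 4.03, 2.91 and 2.93 CPM in PS19, and 1.34, 1.70, 2.12 and 1.64 CPM in PS19_p16KO. PS19 did not overlap the rest, and the interaction was −1.30 ± 0.33 (adjusted p = 0.201 by edgeR). Cybb, the catalytic subunit, had −1.42 ± 0.59, with 1 PS19 library at 1.67 CPM among the levels of the other groups.

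Lysosomal genes had a median of −0.39 over 25 tested. None was called by edgeR at the threshold (0 of 25), 24 were negative, 16 had an unadjusted p under 0.05, and DESeq2 called 7. Cd68 was at 21.5, 16.9, 7.61 and 13.4 CPM in PS19 and at 4.43 to 6.31 CPM in every other library, with an interaction of −1.52 ± 0.32 (adjusted p = 0.113 by edgeR). Ctsh, a cathepsin, had −1.18 ± 0.25 and Grn, the progranulin gene, −0.71 ± 0.18. Hexa, a subunit of the enzyme that breaks down gangliosides, had −0.61 ± 0.14. Several other members lay closer to 0, with Lamp1 at −0.29, Glb1 at −0.01 and Neu1 at 0.09.

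Cst7, which encodes the lysosomal protease inhibitor cystatin F, belongs to the disease-associated microglial list and had the most negative interaction of any listed gene, −5.17 ± 0.95 (adjusted p = 0.0751 by edgeR). It had 15 counts over the wildtype libraries, 36 over p16KO, 514 over PS19 and 32 over PS19_p16KO. Within PS19 its level was 9.53, 9.87, 0.971 and 6.03 CPM, so that replicate 3 lay far below the other PS19 libraries, though still above the 0.689 CPM that was the highest level elsewhere. Of the 23 members tested of that list, 0 were called, 22 were negative and 15 had an unadjusted p under 0.05. The median was −0.86, and DESeq2 called 9.

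General and homeostatic microglial genes were lower in the same contrast. The 14 general markers had a median of −1.01, with 0 called, 13 negative and 12 at an unadjusted p under 0.05, and the 14 homeostatic genes −0.47, with 0 called, 13 negative and 10 at that p (6 and 4 by DESeq2). The summed level of the general markers was 214 to 232 CPM in wildtype, 222 to 245 in p16KO, 282 to 547 in PS19 and 232 to 264 in PS19_p16KO. The PS19 range did not overlap the others. Their part in the interactions of the immune genes above was not tested.

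Laptm5, a lysosomal membrane protein of blood and microglial cells, was at 32.9, 33.0, 30.4 and 33.3 CPM in wildtype, 39.3, 38.4, 36.2 and 36.6 CPM in p16KO, 92.5, 77.5, 47.1 and 65.1 CPM in PS19, and 41.5, 32.7, 38.4 and 38.3 CPM in PS19_p16KO. Its interaction was −1.12 ± 0.21 (adjusted p = 0.0751 by edgeR). Cx3cr1, the homeostatic receptor for neuronal fractalkine, had −0.65 ± 0.16, and Fcrls, an Fc receptor-like gene of resident microglia, −1.26 ± 0.28. Defining markers of infiltrating cells were low, but not all were at 0. The T cell genes Cd3e, Cd3d, Cd3g and Cd8a, the B cell genes Cd79a and Ms4a1 and the neutrophil genes S100a8 and Retnlg were too low to test, and Ly6g had 0 counts in all libraries. Of the 32 genes of these 3 lists 6 were tested, and 0 were called. The T and NK cell genes Trac, Lck and Skap1 had 41 to 110 counts a group, the neutrophil and monocyte genes S100a9 and Plac8 27 to 64, and the immunoglobulin gene Ighm 641 to 792, or 4.78 to 12.2 CPM. Summed over its list, the B cell level was 5.73 to 14.3 CPM in wildtype, 8.99 to 10.7 in p16KO, 7.86 to 12.6 in PS19 and 8.55 to 11.8 in PS19_p16KO. All groups overlapped, as they did in the T and NK cell sum. The neutrophil and monocyte sum was 2.55 to 2.96 CPM in wildtype, 2.25 to 2.87 in p16KO, 1.16 to 1.77 in PS19 and 1.26 to 2.42 in PS19_p16KO. There PS19 lay below wildtype and p16KO and overlapped PS19_p16KO, at very low levels.

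**Figure D3:**
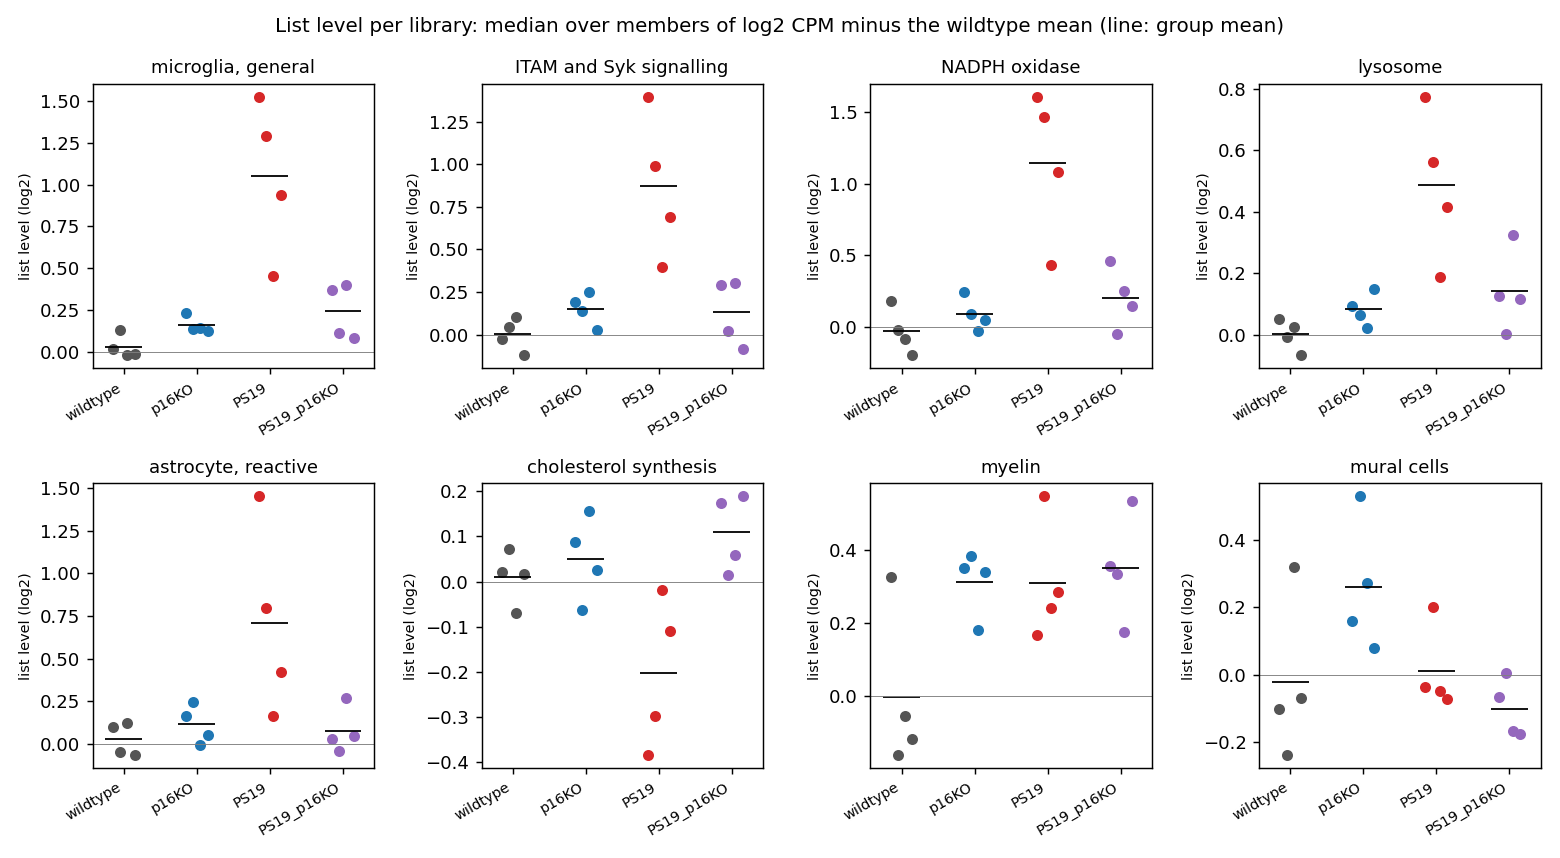
List level per library for 8 lists (vertical axes, median over members of log2 CPM minus the wildtype mean), with a line at each group mean. All PS19 libraries stand above the other groups in the general microglial and signalling lists. PS19 replicate 3 overlaps PS19_p16KO in the oxidase, lysosomal and reactive astrocyte lists, and p16KO in the last of these. PS19 lies lowest in cholesterol synthesis by group mean, and in the myelin list 3 wildtype libraries lie below all others.

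The Toll-like receptor and inflammasome list, whose products sense microbial and damage signals, was mixed. Of 20 tested 0 were called, 13 were negative and 7 positive, 9 were lower and 1 higher at an unadjusted p under 0.05, and the median was −0.50 (2 called by DESeq2). Cd14, a co-receptor, had −1.57 ± 0.36 and Unc93b1, which carries Toll-like receptors to endosomes, −0.91 ± 0.21 (adjusted p of 0.131 and 0.15 by edgeR). In the other direction, Ly96, the partner of Tlr4, had 1.21 at an unadjusted p under 0.05. The cytokine genes Il1b, Il1a and Il18 had 0.17, 0.38 and 0.04.

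Interferon-stimulated genes had a median of −0.57 over 31 tested of 34. None was called (0 of 31), 26 were negative, 6 had an unadjusted p under 0.05, and DESeq2 called 0. The median was −0.90 without PS19_p16KO replicate 1 and −0.41 without PS19 replicate 1. Gbp2, an interferon-induced GTPase, had −1.19 ± 0.35 and Ifit3b, an antiviral gene, −0.85 ± 0.30 (adjusted p of 0.286 and 0.505 by edgeR). All 13 MHC class I and peptide loading genes were negative, with 0 called by either tool, 4 at an unadjusted p under 0.05 and a median of −0.57, or −0.32 without PS19 replicate 1. B2m, the shared light chain, had −0.76 ± 0.27 (adjusted p = 0.582 by edgeR).

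MHC class II genes had a median of −1.09 over 9 tested, with 0 called, 8 negative and 4 at an unadjusted p under 0.05 (1 by DESeq2). Cd74, the invariant chain, was at 25.8, 25.5, 5.45 and 19.6 CPM in PS19 and 3.93 to 9.59 CPM in PS19_p16KO. PS19 replicate 3 overlapped the other groups here, and the interaction of Cd74 was −2.17 ± 0.64 (adjusted p = 0.368 by edgeR). H2-Ob, which restrains peptide loading, had −2.70 ± 0.62 (adjusted p = 0.131 by edgeR).

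Reactive astrocyte genes were the other group with large negative values. Of 15 tested of 18, 0 were called, all 15 were negative, 9 had an unadjusted p under 0.05 and the median was −0.90. DESeq2 called 3, and 6 were called without PS19 replicate 3, in the fit that called 160 of 16584 genes. Without PS19 replicate 1 the median was −0.57. Gfap, the astrocyte intermediate filament, was at 563, 484, 600 and 448 CPM in wildtype and 684, 525, 515 and 476 CPM in p16KO. It was at 2750, 2170, 898 and 1680 CPM in PS19 and 607, 651, 626 and 596 CPM in PS19_p16KO. All PS19 libraries exceeded all others, and the spread within PS19 was 784 CPM (SD, n = 4) against 24.3 CPM in PS19_p16KO.

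The transgene raised Gfap by 1.84 ± 0.26 with p16 intact (adjusted p = 0.00338 by edgeR), its effect with p16 knocked out was 0.17 ± 0.26, and the interaction was −1.67 ± 0.36 (adjusted p = 0.162). Aspg, an asparaginase gene of reactive astrocytes, and Ggta1, a glycosyltransferase, had −1.64 ± 0.48 and −1.41 ± 0.36. Genes of astrocyte identity had smaller values. All 13 were negative with a median of −0.21 and 0 called (1 by DESeq2), 5 had an unadjusted p under 0.05, and the water channel gene Aqp4 had −0.83 ± 0.21 (adjusted p = 0.218 by edgeR). Slc1a2 and Slc1a3, the glutamate transporters, had −0.32 ± 0.12 and −0.29 ± 0.11.

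Lipid genes took both signs. Lipid handling had a median of −0.22 over 16 tested, with 0 called (1 by DESeq2), 13 negative, and Abca1, the exporter of cholesterol to lipoproteins, at −0.88 ± 0.19 (adjusted p = 0.131 by edgeR). Abca1 was at 99.3, 86.1, 59.4 and 78.4 CPM in PS19 and 45.3 to 65.8 CPM in the other libraries, which PS19 replicate 3 overlapped. In contrast, the 20 genes of cholesterol synthesis all had a positive interaction, with a median of 0.19, 0 called and 8 at an unadjusted p under 0.05, where 1.28% of all genes were higher at that p. DESeq2 called 0 of the 20. This was the most positive median in the plot of interactions by list, where the choroid plexus and blood cell lists were not drawn.

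Fdps, which makes farnesyl pyrophosphate, was at 30.1, 33.5, 29.0 and 27.9 CPM in wildtype, 29.8, 27.1, 34.2 and 33.3 CPM in p16KO, 22.4, 22.4, 24.1 and 24.0 CPM in PS19, and 32.3, 27.7, 33.6 and 33.8 CPM in PS19_p16KO. The PS19 libraries were the lowest without overlap. With p16 intact the transgene lowered Fdps by 0.38 on the log2 scale (−0.38, adjusted p = 0.0175 by edgeR), with p16 knocked out the effect was 0.03, and the interaction was 0.41 ± 0.12 (adjusted p = 0.254).

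Sqle, the squalene epoxidase, had the most positive value of the pathway, 0.50 ± 0.15, followed by Fdft1, the squalene synthase, at 0.42 ± 0.15, while Msmo1, a sterol demethylation enzyme, had 0.38 ± 0.13. In Sqle and Fdft1, PS19 replicates 3 and 4 overlapped the other groups. Without replicate 3 both were called, with Hmgcs1, as the 3 higher genes among the 160 calls of that fit. Insig1, the sterol sensor that holds the pathway down, had 0.43 ± 0.15 and did not pass the test (adjusted p = 0.456 by edgeR). It belongs to the separate sterol sensing list, whose median was 0.03 over 9 tested, with 3 negative, 6 positive and 0 called.

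**Figure D4:**
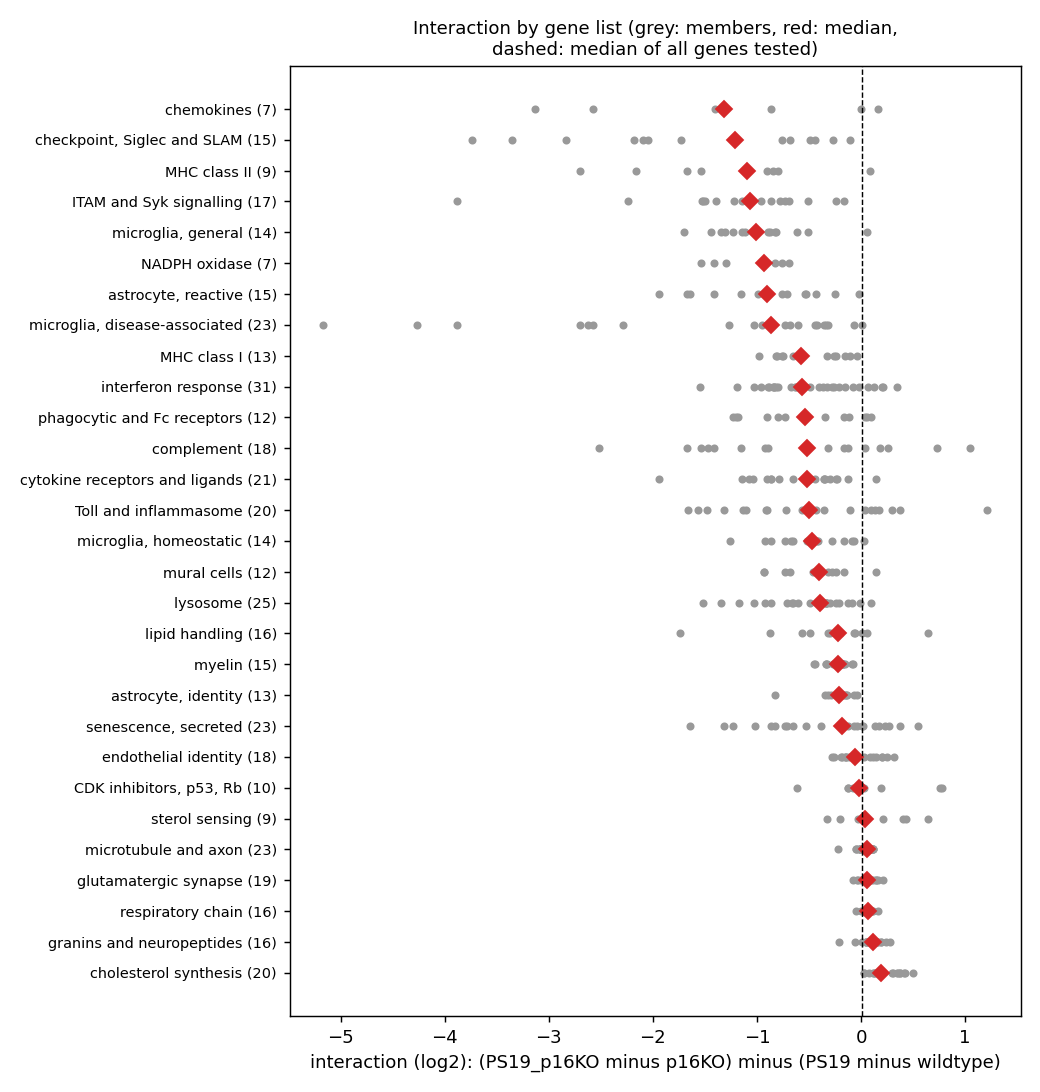
Interaction (horizontal axis, log2) of each tested gene of 29 lists (grey points, number tested in brackets) with the list median (red diamond) and the median of all genes (dashed line). Medians of the lists drawn run from −1.32 in chemokines to 0.19 in cholesterol synthesis, and neuronal lists lie near 0. Higher medians were found in lists not drawn, namely choroid plexus (2.02), red blood cell (2.46, 2 genes tested) and neutrophil and monocyte genes (0.55, 2 tested).

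The genes of senescence itself gave a mixed picture. Cell cycle inhibitors and their p53 and Rb partners had a median of −0.02 over 10 tested, with 0 called by either tool and 6 negative. Cdkn1a, which encodes p21, was at 11.9, 15.3, 6.85 and 11.5 CPM in PS19, 5.63 to 7.78 CPM in wildtype, 5.44 to 6.56 CPM in p16KO and 4.68 to 8.68 CPM in PS19_p16KO. PS19 replicate 3 overlapped the other groups, and the interaction was −0.61 ± 0.30 (adjusted p = 0.947 by edgeR). Cdkn2d, which encodes p19INK4d, was the 1 gene of the 10 tested with an unadjusted p under 0.05, at 0.19 ± 0.09 (adjusted p = 0.865 by edgeR). Over all genes 5.44% reached that unadjusted p. Cdkn2b, the neighbour of Cdkn2a, had 0.77 ± 0.48, and 0.42 with the library number as a covariate. Proliferation genes had a median of −0.01 over 18 tested, with 0 at an unadjusted p under 0.05.

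Of the 32 secreted factors and receptors linked to senescence, 23 could be tested, with a median of −0.18, 0 called and 9 at an unadjusted p under 0.05, all lower (2 called by DESeq2). That median was −0.45 without PS19_p16KO replicate 3 and −0.16 with a filter of CPM above 1 in 4 libraries. Plau, the urokinase plasminogen activator, had −1.23 ± 0.36, Icam1, an adhesion molecule, −1.02 ± 0.33, and Angpt1, an angiopoietin, −0.83 ± 0.20. Angpt1 was at 13.5, 12.1, 9.06 and 9.67 CPM in PS19 and 5.90 to 9.08 CPM in the other libraries, where PS19 replicate 3 again overlapped. Il6 was too low to test, and the insulin-like growth factor binding protein genes Igfbp3 and Igfbp2 had 0.27 and 0.55.

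Neuronal functions showed small median interactions, with small errors in most lists. Immediate-early activity genes were the exception, with a median of 0.09 over 14 tested, 0 called and a median standard error of 0.49. The sign of that median changed under 4 settings. Prnp, whose promoter drives the transgene, was at 989 to 1060 CPM in wildtype, 1060 to 1080 CPM in p16KO, 1500 to 1970 CPM in PS19 and 1790 to 1920 CPM in PS19_p16KO. Both transgenic groups lay above both others, with an interaction of 0.02 ± 0.09 (95% interval −0.17 to 0.22), whose sign changed under 3 settings. Whether the counts include transgene reads was not tested. Mouse Mapt had 0.09 ± 0.09 (95% interval −0.09 to 0.27).

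Tau kinases and phosphatases had a median of 0.02 over 17 tested, and none lay outside −0.07 to 0.09. Microtubule and axonal genes had 0.05 over 23 tested, glutamatergic synapse genes 0.06 over 19, and granins and neuropeptides 0.12 over 16, with 0 called in each by either tool. Snap25, a release machinery gene, had 0.14 ± 0.08, and 0.08 without wildtype replicate 2. Scg3, a granin of secretory granules, was at −0.21 ± 0.09 the 1 gene of 16 in its list with an unadjusted p under 0.05. Over all genes 5.44% had such a p, so 1 of 16 is near that share. The median standard error of a gene was 0.08 in the kinase list, 0.09 in the microtubule and synapse lists and 0.15 in the granin list, so these medians were smaller than the error of a single gene, and the counts do not show that the effects were equal.

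The shape of an interaction depends on which group stands apart, and PS19 was not that group everywhere. The group apart is the group whose mean log2 CPM lay farthest from the mean of the other 3. Over all genes it was wildtype for 4078, p16KO for 3162, PS19 for 4780 and PS19_p16KO for 4352. PS19 stood apart in 18 of the 19 genes with an adjusted p under 0.1, in 7 of 7 oxidase genes, 13 of 13 MHC class I genes, 21 of 25 lysosomal genes and 16 of 20 cholesterol synthesis genes. Selecting genes by their interaction favours some group standing apart, so the 18 of 19 is a description.

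Myelin genes were apart in wildtype in 15 of 15. Their interactions were all negative, with a median of −0.22, 0 called by either tool and 0 at an unadjusted p under 0.05. It was −0.36 without wildtype replicate 1 and −0.14 without PS19 replicate 2. Myrf, the transcription factor of myelination, was at 74.0, 53.2, 55.3 and 55.6 CPM in wildtype, 60.5 to 72.6 CPM in p16KO, 70.7 to 80.5 CPM in PS19 and 59.6 to 73.2 CPM in PS19_p16KO. A single wildtype library overlapped the other groups, and the interaction was −0.27 ± 0.13 (adjusted p = 0.956 by edgeR). Cldn11 and Trf, a tight junction gene of myelin and the transferrin gene, had −0.44 ± 0.21 and −0.45 ± 0.21, with Trf at −0.27 without PS19 replicate 2.

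Vascular genes were most often apart in p16KO, in 7 of 12 mural genes and 8 of 18 endothelial identity genes (PS19 in 7 of the 18). This was not particular to vessels, since 8 of 12 meningeal fibroblast genes were also apart in p16KO. Mural genes had a median of −0.41, with 0 called by either tool and 1 of 12 at an unadjusted p under 0.05. That p was reached by 5.44% of all genes. Myh11, the smooth muscle myosin, was at 7.06, 19.9, 9.08 and 7.87 CPM in p16KO, with p16KO replicate 2 above all other libraries, and 4.57 to 7.63 CPM in the other groups. Its interaction was −0.93 ± 0.39 (adjusted p = 0.774 by edgeR), and −0.48 without p16KO replicate 2. Endothelial identity genes had a median of −0.06 over 18, with 10 negative, 8 positive and 0 at an unadjusted p under 0.05. The sign of that median changed under 1 setting. Flt1, a receptor for vascular endothelial growth factor, had −0.20 ± 0.11 (−0.13 with limma-voom) and Esam, an adhesion molecule, −0.28 ± 0.16. In the other direction, Egfl7 and Slco1a4 had 0.25 and 0.20. Nuclear respiratory chain genes were apart in PS19_p16KO in 12 of 16, with a median of 0.06.

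**Figure D5:**
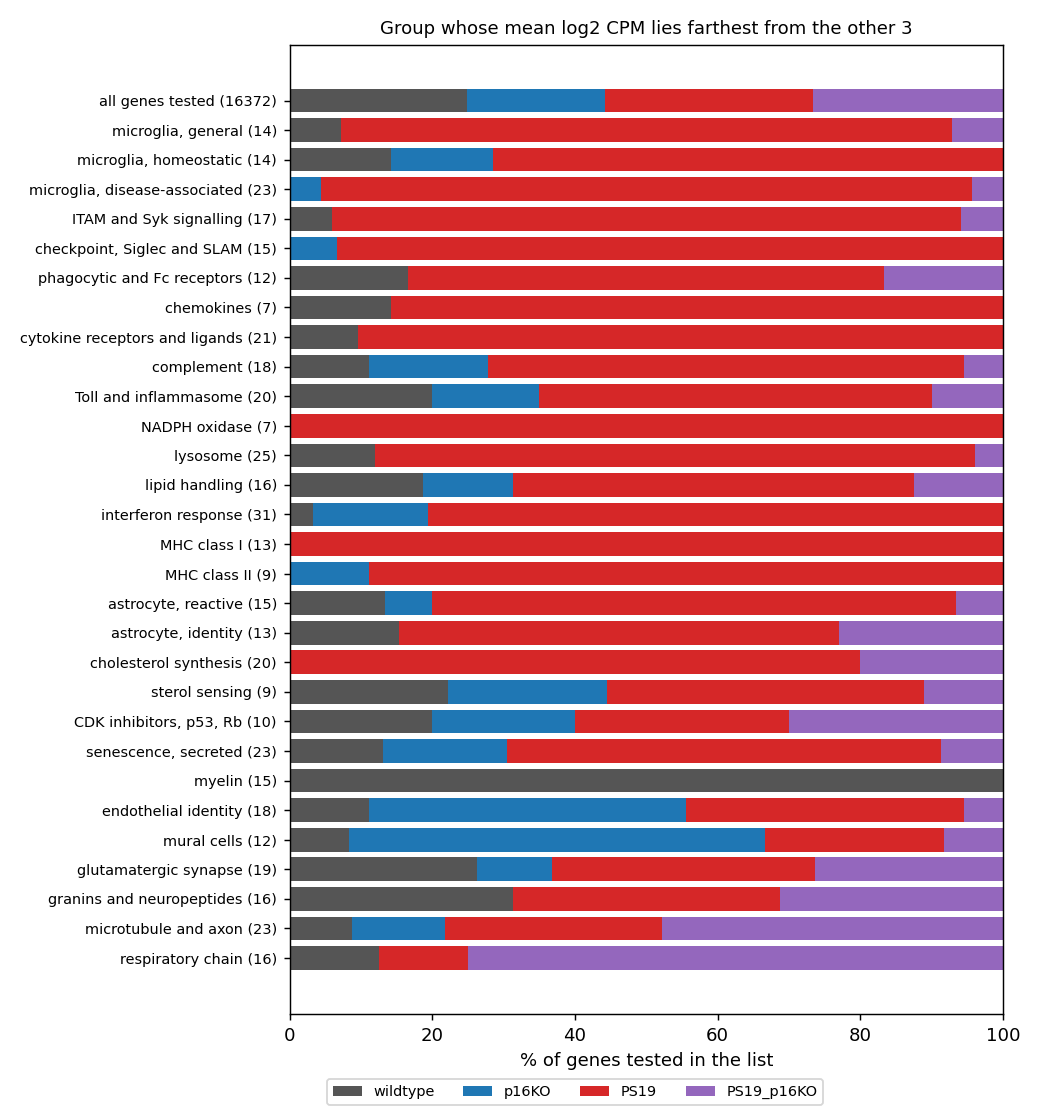
Share of the tested genes of each list (horizontal axis, %) by the group whose mean lay farthest from the other 3, with all 16372 genes in the top bar. PS19 fills the bars of the oxidase and MHC class I lists, wildtype fills that of myelin (15 of 15), and PS19_p16KO takes 12 of 16 respiratory chain genes.

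Gbp2b, an interferon-induced guanylate binding protein, was the exception among the genes nearest the threshold. It had 3 counts over the 4 wildtype libraries, against 87 over p16KO, 161 over PS19 and 106 over PS19_p16KO. Its levels were 0, 0, 0 and 0.161 CPM in wildtype, 0.81, 0.973, 1.80 and 0.781 CPM in p16KO, 3.72, 2.14, 1.56 and 0.978 CPM in PS19, and 1.29, 1.17, 1.91 and 1.15 CPM in PS19_p16KO. Wildtype alone lay near 0, and the other 3 groups overlapped. The fitted interaction of −5.22 ± 0.85 (adjusted p = 0.0505 by edgeR) rests on the 3 wildtype counts, all in replicate 4. Without that library it was −8.03. There every wildtype count is 0, and the size depends on the prior count that replaces the zeros. Neither value is a bound. Near-identical genes of its family adjoin it, so its reads may be shared.

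No gene was called with a positive interaction by edgeR (0, with 209 at an unadjusted p under 0.05). The 5 highest-ranked positive genes with a mean log2 CPM above 0 were Fam98c, A930012L18Rik, Sh3bp4, 1810012K08Rik and Fdps. Counts were low in A930012L18Rik (92 to 147 a group) and 1810012K08Rik (51 to 113 a group). Fam98c was at 19.8, 18.3, 19.1 and 19.5 CPM in wildtype, 16.1, 17.2, 17.5 and 16.9 CPM in p16KO, 18.3, 16.3, 17.0 and 17.3 CPM in PS19, and 19.1, 18.9, 22.1 and 22.2 CPM in PS19_p16KO. Here the groups with a single altered genotype were the lower ones by mean, and the interaction was 0.44 ± 0.10 (adjusted p = 0.136 by edgeR). Fam98c was the 1 gene that DESeq2 called higher. The p16KO mean was also the lowest in A930012L18Rik (1.31 ± 0.34) and 1810012K08Rik (1.48 ± 0.41), and Sh3bp4, a gene of endocytosis, had 0.32 ± 0.08.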

How the data were processed

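Total RNA of 16 hippocampal libraries was sequenced, and the authors deposited unnormalized counts in a single table of 49671 genes and 92 ERCC spike-ins. The tools named per the submitters' processing notes are STAR 2.5.2b, Trimmomatic 0.36, Subread 1.5.2, featureCounts and DESeq2, and the build is GRCm38. What each tool did, the strand setting and the annotation release are not stated there, so overlapping, antisense and near-identical genes may share reads. Gene symbols came from GENCODE vM21 by identifier (49412 rows matched).

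ERCC rows (0.574% to 1.06% of counts) were left out. Counts differed between replicates by more than sampling noise in all 24 pairs, so each library was counted once. Low genes were removed with filterByExpr (minimum count 10), libraries were scaled by TMM, and all 16 entered a single robust quasi-likelihood fit in edgeR 4.0.16 (R 4.3.3) with one mean per group. P-values were adjusted by Benjamini-Hochberg over the 16372 genes tested, with a threshold of 0.05, and standard errors come from the F statistic. A list level is the median over members of log2 CPM minus the wildtype mean. The procedure was tested on simulated data.

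Members, lists and motifs were chosen with earlier results of these data known. Lists are described by counts and medians. Named genes are Cdkn2a, Mapt, Prnp, called genes, up to 4 members of each list by smallest p, and the 5 positive genes with the smallest p and mean log2 CPM above 0. Genes with an adjusted p under 0.1 and other list members named were chosen after their values were seen. Some genes of the lists are not reported here. Promoters are from RefSeq (GRCm38.p6), where 133 of 189 named genes matched. Alternatives used DESeq2 1.42.0, limma 3.58.1 (voom), RLE scaling, other filters, covariates and each library left out. The replicate numbers did not pair the samples. Of the alternatives, 3 were chosen after seeing the data, namely leaving out the choroid-rich libraries and a covariate of either the choroid plexus level or the number opening each library name.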

Additional observations from a re-analysis of the deposited data

Results flagged for a closer look

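C3ar1 had transgene effects that differed between the p16 genotypes by the interaction test, at −2.52 on the log2 scale.

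Among 360 sets of 4 libraries (genes printed by library, and list levels), 22 held a library far from the other 3, which is 6.11%, where chance gives about 1 in 20. In 8 of them the value was the CPM of a gene. In wildtype these were C3ar1 in replicate 3 (0.896, others 1.2 to 1.23), Cd84 in replicate 2 (3.47, others 1.69 to 1.83), Laptm5 in replicate 3 (30.4, others 32.9 to 33.3), Cxcl10 in replicate 2 (1.17, others 0.527 to 0.591), Myrf in replicate 1 (74.0, others 53.2 to 55.6) and Gbp2b in replicate 4 (0.161, others 0). In p16KO replicate 1 Clec7a was at 1.75 (others 1.44 to 1.49), and in PS19 replicate 2 Myrf was at 80.5 (others 70.7 to 71.6).

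In the other 14 sets the value was a list level, the median over members of log2 CPM minus the wildtype mean. In wildtype replicate 4 the levels of chemokines (−0.176), MHC class I (−0.181) and B cell genes (−0.685) were the lowest of the group. The iron list was lowest in wildtype replicate 2 (−0.16) and the T and NK cell list in wildtype replicate 1 (0.014). In p16KO, general microglial genes (0.234) and the nuclear respiratory chain (0.094) were highest in replicate 1, and complement genes in replicate 2 (0.33). In PS19, secreted senescence factors were highest in replicate 1 (0.529), while in replicate 2 the mural list was highest (0.201) and the microtubule list lowest (−0.109). In PS19_p16KO, choroid plexus genes were highest in replicate 3 (4.999, others −1.02 to −0.784), and immediate-early genes (0.75) and red blood cell genes (1.96) in replicate 4.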

How the results depend on the processing

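The interaction call of C3ar1 held in all 28 alternatives, and no result with a call changed direction. The number of genes called was 1 as reported and moved more than other values. It was 6 with RLE scaling, 88 with DESeq2, 20 without a filter on low counts, 2 without robust dispersion, 13 with the suffix digit of the library name as a term, 5 with the choroid plexus level as a covariate and 57 with the number that opens each library name as a covariate. It stayed at 1 with limma-voom, a filter of CPM above 1 in 4 libraries, a minimum fold of 1.2 and without the 3 choroid-rich libraries. With the replicate number as a block the count was 5. Of 24 same-numbered pairs 6 had deviations correlated above 0.1 (range −0.39 to 0.22), and 4 of 16 libraries correlated best with their own number, so the numbers were not treated as pairs. Leaving out each library in turn gave 1 to 160 calls. It gave 160 without PS19 replicate 3, 3 without wildtype replicate 1 or PS19 replicate 4, and 2 without wildtype replicate 4, p16KO replicate 4, PS19 replicate 1 or PS19_p16KO replicate 3. The cause was not tested. The 4 libraries a group limit the resolution to a median standard error of 0.14, and genes with few counts, such as Cdkn2a, could not be tested.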

Other observations

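Several lists outside the functions above had interactions worth a description. Iron genes had a median of −0.36 over 11 tested, with 0 called by edgeR, 4 at an unadjusted p under 0.05 and 1 called by DESeq2. Slc11a1, an iron exporter of phagosomes, was at 12.4, 12.5, 4.32 and 7.55 CPM in PS19 and at 1.86 to 3.44 CPM in the other libraries, with an interaction of −1.69 ± 0.40 (adjusted p = 0.151 by edgeR). Hmox1, which frees iron from haem, had −0.91 ± 0.28. Among genes of the integrated stress response Atf3, a stress-induced transcription factor, had −1.22 ± 0.40 (adjusted p = 0.418 by edgeR), while the median over 12 was −0.11 with 0 called. The oligodendrocyte precursor list had a median of −0.12 over 9 tested, with 5 negative, 4 positive and 0 called by edgeR. Its most negative member was Gpr17, a receptor of differentiating precursors, at −0.50 ± 0.15 (adjusted p = 0.339 by edgeR). Dentate granule cell, pyramidal cell and interneuron markers had medians of 0.06, 0.07 and −0.01. Heat shock genes had −0.01 over 15.

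Choroid plexus genes had a median interaction of 2.02 over 16 tested, with 0 called and 0 at an unadjusted p under 0.05. The median was −1.31 without the 3 libraries rich in that RNA. Leaving those libraries out left the general microglial median at −1.06 and the cholesterol synthesis median at 0.24.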
